A study of Rattus norvegicus with 6 samples.

Results

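Eph receptors and ephrins were followed in differentiated H9c2 cells with and without knockdown of the long non-coding RNA Tug1. The 10 genes described are Epha2, Epha3, Epha4, Ephb2, Ephb3, Ephb4, Efna1, Efna5, Efnb1 and Efnb2, out of 22 genes of the family and 40456 genes in the count table. They were chosen by name from the family with the counts and the group differences of these same libraries known, without a stated limit on level or change, so their differences between the groups are given as a description and support nothing further. H9c2 is a line derived from rat embryonic heart tissue. Per the labels, all 6 libraries came from wild-type H9c2 (2-1) cells differentiated for 5 days in DMEM with 1% serum and 1 µM retinoic acid, then exposed for 24 h to an antisense gapmer at 25 nM. Gapmers carry locked nucleic acids at their ends around a DNA core, which directs RNase H to the RNA they pair with. The control group received a negative control gapmer (3 libraries) and the knockdown group a Tug1 gapmer (3 libraries). Each group rests on 1 oligonucleotide in 1 cell line, and the labels do not say whether replicates were separate cultures, so p-values measure only the spread between these libraries. The oligonucleotides are shown because they are all that distinguishes the groups in the labels, 16 bases each, in lower case throughout since no part is singled out.
Tug1 gapmer: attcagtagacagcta
negative control gapmer: gctcccttcaatccaa

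Eph receptors are the largest family of receptor tyrosine kinases, and their ligands, the ephrins, are themselves fixed to the cell surface. Ephrin-A proteins hang on a lipid anchor and mainly bind EphA receptors, whereas ephrin-B proteins cross the membrane and mainly bind EphB receptors, with exceptions such as EphA4, which binds both classes. Contact between neighbouring cells sends a forward signal into the cell with the receptor and a reverse signal into the cell with the ephrin, and both act largely on the cytoskeleton and cell adhesion. In the cardiovascular system, ephrin-B2 and EphB4 are known for marking arteries and veins, EphA3 for the formation of the valves and septum, and ephrin-B1 for its place at the lateral membrane of cardiomyocytes. In skeletal muscle, EphA receptors and ephrin-A proteins are known for guiding myoblasts and motor axons.

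Total counts ran from 12978548 to 13544337 per library, so that 1 CPM, a count scaled to library size, stood for 12.9 to 13.8 counts. Mean Tug1 levels were 54.0 ± 1.77 CPM with the control gapmer and 11.9 ± 0.609 CPM with the Tug1 gapmer (SD, n = 3), and no knockdown library reached a control library. Only 3 of the 9 markers of the labelled cell type, cardiomyocyte, had enough counts to be tested. Of 9 cardiomyocyte markers, 6 had more than 3 counts in some library, while Myh6, Myh7 and Ryr2 had at most 3 in every library. Of these 6, Tnni3, Myl7 and Nppa reached 4 counts in 1 library each and were not tested. The summed level of the 9 markers was 345 to 380 CPM in controls and 408 to 460 CPM after knockdown, nearly all of it from Tnnt2, with means of 349 and 410 CPM. Tnnt2 and Actc1 were called higher (log2 fold changes of 0.24 and 0.97), as was Myl2 (1.23), which met the count filter's minimum in 0 of 3 control and 3 of 3 knockdown libraries. The 5 skeletal myoblast markers summed to 522 to 535 CPM and 807 to 852 CPM, with Myf5 at most 3 counts in any library; Myog, Myh3 and Des were called higher and Myod1 lower, the last of which did not pass with an offset for genomic span. The 5 endothelial markers summed to 3.02 to 4.47 CPM and 2.81 to 3.91 CPM, with Pecam1, Cdh5 and Kdr at most 3 counts. The 4 neural markers summed to 18.0 to 21.7 CPM and 14.8 to 17.8 CPM, with Snap25 at most 3 counts. Within that sum Tubb3 was called lower (-1.96) and Map2 higher (1.71). The 5 fibroblast, 4 smooth muscle and 3 leukocyte markers summed to 22255 to 23511, 890 to 990 and 3.14 to 5.19 CPM in controls and to 18494 to 20495, 1029 to 1189 and 6.45 to 8.88 CPM after knockdown, with Ptprc at 0 counts. Each of these sums is mostly 1 or 2 genes: Col1a1, at means of 21693 and 18554 CPM, makes up nearly all of the fibroblast sum, Acta2 and Tagln of the smooth muscle sum, and Cd68 of the leukocyte sum. The fibroblast markers did not move together, since Col1a1 and Thy1 were called lower (-0.23 and -0.40) and Dcn higher (0.57). The part of these markers in the results below was not tested. In bulk RNA, fewer cells of a type and less RNA per cell cannot be told apart.

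Of the 10 genes, 7 were lower after knockdown, 1 was higher at a low level, and 2 were at or near 0 counts. Efna1, the first ephrin-A to be described and a ligand of EphA2, was lowest relative to controls, at 28.2% of the control level. The other 6 lower genes stood at 59.3% to 85.0% of it. Log2 fold changes of the 7 lower genes ran from -1.83 to -0.23 with a median of -0.43. Of the 10 genes, 8 passed the filter on low counts, and all 8 were called changed by edgeR's quasi-likelihood test (Benjamini-Hochberg adjusted p under 0.05). Over all 14216 tested genes 61.7% did so, 30.8% as higher and 30.9% as lower. The 3 knockdown values lay wholly on one side of the 3 control values for all 8 as well, against 65.6% of all tested genes. At the median, the 8 tested members stood at a log2 fold change of -0.43 and all tested genes at 0.00. Since the members were proposed with this contrast known, nothing is read from these counts. Levels are compared here only within a gene, because no transcript lengths were at hand.

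**Figure D1:**
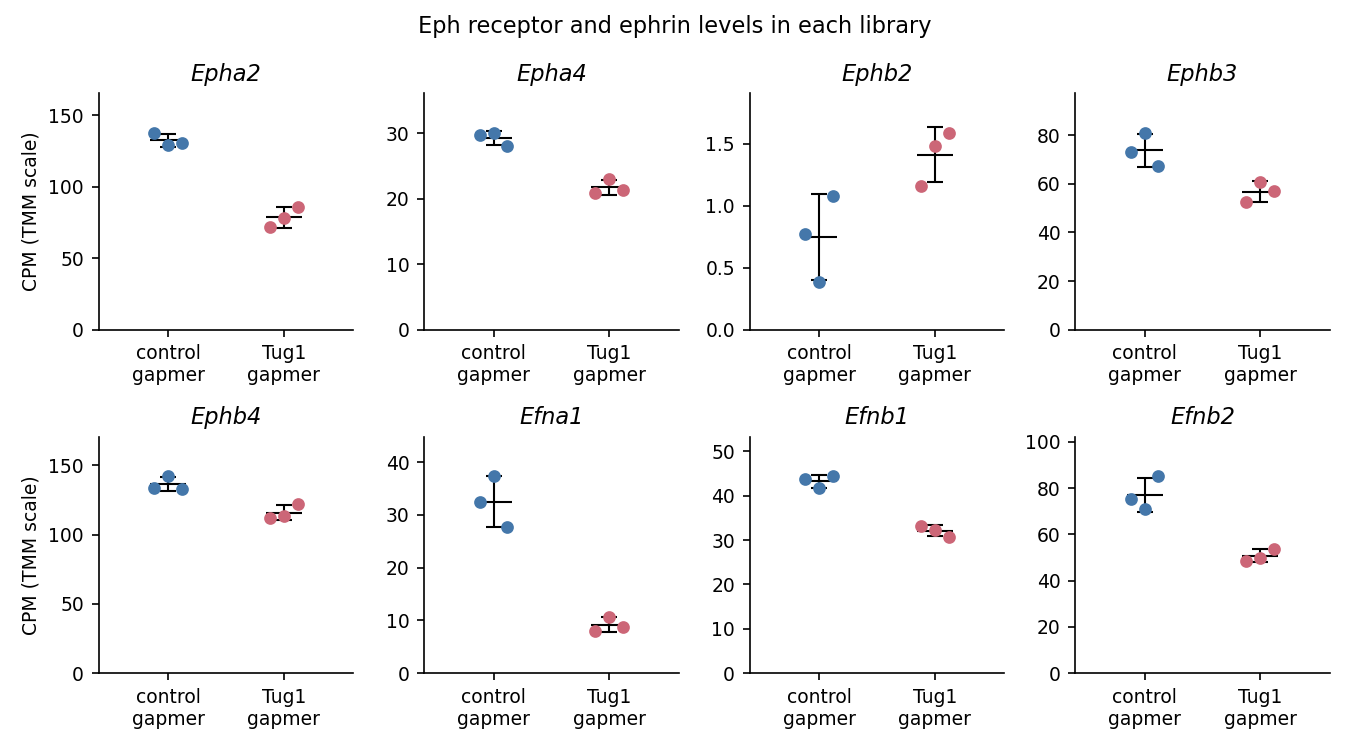
Levels of the 8 members with enough counts to be tested, as CPM on the TMM scale (vertical axis, starting at 0 and scaled for each gene), in the 3 control gapmer and 3 Tug1 gapmer libraries. Points are libraries, and the bars are the mean with its SD. Efna1 shows the widest relative gap, from 32.5 to 9.15 CPM, and only Ephb2, at about 1 CPM, lies higher after knockdown.

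Among the EphA receptors, Epha2 and Epha4 were lower and Epha3 was close to absent. Epha2, a receptor known from epithelial and tumour cells that is also a brake on growth factor signalling when bound by ephrin-A1, had 138, 129 and 131 CPM in control replicates 1 to 3 and 71.6, 78.0 and 85.9 CPM in knockdown replicates 1 to 3. Its log2 fold change was -0.75 (SE 0.0604), between means of 132 ± 4.56 and 78.5 ± 7.14 CPM (SD, n = 3). The highest knockdown library lay well below the lowest control library, and 8.86% of all tested genes had a lower log2 fold change. Epha4, the receptor that accepts ligands of both classes, had 29.8, 30.0 and 28.0 CPM in controls and 20.8, 23.0 and 21.3 CPM after knockdown. The groups did not overlap, and the log2 fold change was -0.43 (SE 0.0794). Epha4 spans 143 kb of the genome, longer than 92.3% of tested genes with a known span. With an offset that removes each library's trend with genomic span, its log2 fold change was -0.69 (SE 0.0791), whereas that of Epha2, which spans 28.5 kb, was -0.77 (SE 0.0584). Epha3 had 1, 0 and 3 counts in controls and 1, 3 and 7 after knockdown and did not pass the filter. The ratio of its summed counts, knockdown over control, was 2.64 with a 95% exact interval of 0.782 to 11.4 for counting error only, so a difference was not detectable at this depth.

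Among the EphB receptors, Ephb3 and Ephb4 were lower by a modest amount and Ephb2 was higher at a level near the filter. Ephb4, the venous partner of ephrin-B2, had 134, 142 and 133 CPM in controls and 112, 113 and 122 CPM after knockdown. Its log2 fold change of -0.23 (SE 0.0523) was the smallest in size among the 8 tested members, and its groups were separated by a gap of 11.2 CPM. Ephb3, known from axon guidance and from cell positioning in the gut, had 72.9, 80.9 and 67.3 CPM in controls and 52.3, 60.9 and 57.1 CPM after knockdown. Control replicate 2 was the highest and control replicate 3 the lowest of its controls, and the groups did not overlap, with a log2 fold change of -0.38 (SE 0.0692). Part of Zan, a gene with 336 counts over the 6 libraries and a log2 fold change of 0.50, overlaps the span of Ephb4 in the RefSeq table. Whether strand was used in counting is not given in the sources used here.

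Ephb2, a receptor known from synapses and from boundaries between groups of cells, had 10, 5 and 14 counts in controls and 16, 20 and 21 counts after knockdown. In CPM these were 0.767, 0.387 and 1.08 against 1.16, 1.48 and 1.59, and the lowest knockdown library stood just above the highest control library. It met the minimum of the count filter in 2 of 3 control and 3 of 3 knockdown libraries, so it entered the fit through the group in which it is higher. Its log2 fold change was 0.91 (SE 0.361). It did not pass the threshold with DESeq2's Wald test, with the length offset (log2 fold change 0.61), at an adjusted p of 0.01, or when control replicate 1 (0.93), control replicate 2 (0.60), knockdown replicate 2 (0.87) or knockdown replicate 3 (0.82) was left out.

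Among the ligands, Efna1, Efnb1 and Efnb2 were lower and Efna5 was at 0. Efna1 had 32.5, 37.3 and 27.7 CPM in control replicates 1 to 3 and 7.97, 10.7 and 8.76 CPM in knockdown replicates 1 to 3. Every knockdown library was under 11 CPM and every control library above 27 CPM. Between means of 32.5 ± 4.81 and 9.15 ± 1.42 CPM (SD, n = 3) the log2 fold change was -1.83 (SE 0.117), and 1.06% of tested genes had a lower one. Its coefficient of variation, 14.8% in controls and 15.5% after knockdown, was the highest of the 7 lower genes in either group, where the medians were 3.78% and 5.52%. Efna5, an ephrin-A known as a repellent for axons and myoblasts, had 0 counts in all 6 libraries, which allows up to 3 counts per library, or 0.217 to 0.232 CPM.

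Both ephrin-B members were lower after knockdown. Efnb2, the arterial ephrin, had 75.1, 71.0 and 85.1 CPM in controls and 48.4, 49.9 and 53.8 CPM after knockdown, means of 77.0 ± 7.24 and 50.7 ± 2.80 CPM (SD, n = 3). Its log2 fold change was -0.60 (SE 0.0675), and the lowest control library exceeded the highest knockdown library by 17.1 CPM. Efnb1, the ephrin-B of the cardiomyocyte lateral membrane, had 43.6, 41.6 and 44.3 CPM in controls and 33.2, 32.3 and 30.7 CPM after knockdown. Its log2 fold change was -0.43 (SE 0.0681), with libraries tighter within each group than for any other of the 7 lower genes. Genomic spans of the 7 lower genes ran from 9.24 kb to 143 kb around a median of 25.3 kb, against a median of 22.4 kb over tested genes. With the length offset their log2 fold changes ran from -1.74 to -0.23, and all 7 were lower in every alternative that was run.

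The remaining 12 genes of the family were read from the same fit, and 5 of them had enough counts to be tested. Of these 5, 3 fell, 1 rose and 1 did not pass (edgeR, adjusted p of 0.05), with a median log2 fold change of -0.72. Over all tested genes 61.7% passed. Efna3, a second ephrin-A, had 16.6, 17.6 and 20.2 CPM in controls and 9.06, 8.21 and 7.48 CPM after knockdown. It fell by 1.13 on the log2 scale (SE 0.115, adjusted p of 1.29e-08 in edgeR), and its groups did not overlap. Efna2, known from visual and auditory maps in the brain, had means of 5.37 ± 0.400 and 3.26 ± 0.624 CPM (SD, n = 3) and fell by 0.72 on the log2 scale (SE 0.187, adjusted p of 0.00197 in edgeR). Efna4 had 4.91, 6.66 and 5.63 CPM in controls and 5.94, 5.70 and 6.12 CPM after knockdown, so the groups overlapped. Its log2 fold change of 0.05 (SE 0.157, adjusted p of 0.815 in edgeR) did not pass, and without control replicate 1 its sign turned (-0.06).

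Epha7, a receptor known from cortical and limb development, was the best detected family gene outside the 10, with 58.6, 50.1 and 55.4 CPM in controls and 61.4, 62.1 and 59.5 CPM after knockdown. Its knockdown libraries lay just above its control libraries, and the gene rose by 0.16 on the log2 scale (SE 0.0632, adjusted p of 0.0347 in edgeR). This direction does not hold under every scaling: Epha7 spans 153 kb, and with the length offset its log2 fold change was -0.11 (adjusted p of 0.112 in edgeR). It also missed the threshold with DESeq2's Wald test, without the count filter, and without control replicate 2 (0.10), knockdown replicate 1 (0.15) or knockdown replicate 2 (0.15). Epha1 had 13, 24 and 20 counts in controls and 10, 9 and 10 after knockdown, which gave a log2 fold change of -1.02 (SE 0.346, adjusted p of 0.0134 in edgeR). It met the minimum of the count filter in 3 of 3 control and 1 of 3 knockdown libraries, so it entered the fit through the group in which it is higher, and its call supports nothing. It did not pass with DESeq2's Wald test or without control replicate 2 (-0.82). Its span overlaps that of Zyx, a gene with 28445 counts over the 6 libraries and a log2 fold change of -0.56. Reads within the stretch that the 2 genes share cannot be told apart if strand was not used.

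Another 7 family genes were too low to test. Efnb3, the third ephrin-B, had 0, 2 and 0 counts in controls and 7, 6 and 6 after knockdown, a ratio of summed counts of 9.12 with a 95% exact interval of 2.20 to 80.7 for counting error. Epha10, a receptor without kinase activity, had 6, 6 and 6 counts against 13, 3 and 8, with knockdown libraries on both sides of the controls. Ephb1 was at 0 counts in every library, and Epha5, Epha6, Epha8 and Ephb6 had at most 3 counts in any library. Over the whole family, 13 of 22 genes were tested and 12 passed, 10 lower and 2 higher, where 61.7% of all tested genes passed, 30.9% as lower and 30.8% as higher. Since 8 of the 13 are members chosen with this contrast known, nothing is read from this count. With the length offset 7 members and 3 of the other family genes were lower and 0 were higher, so that both higher calls, Ephb2 and Epha7, were lost. Among all 13079 genes in the fit with this offset, 4159 were called lower and 3964 higher. By class and without the offset, there were 5 lower and 2 higher of 7 tested receptors, and 5 lower of 6 tested ephrins. Efnb3 and the other genes too low to test are not in this tally, and nothing is read from it.

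**Figure D2:**
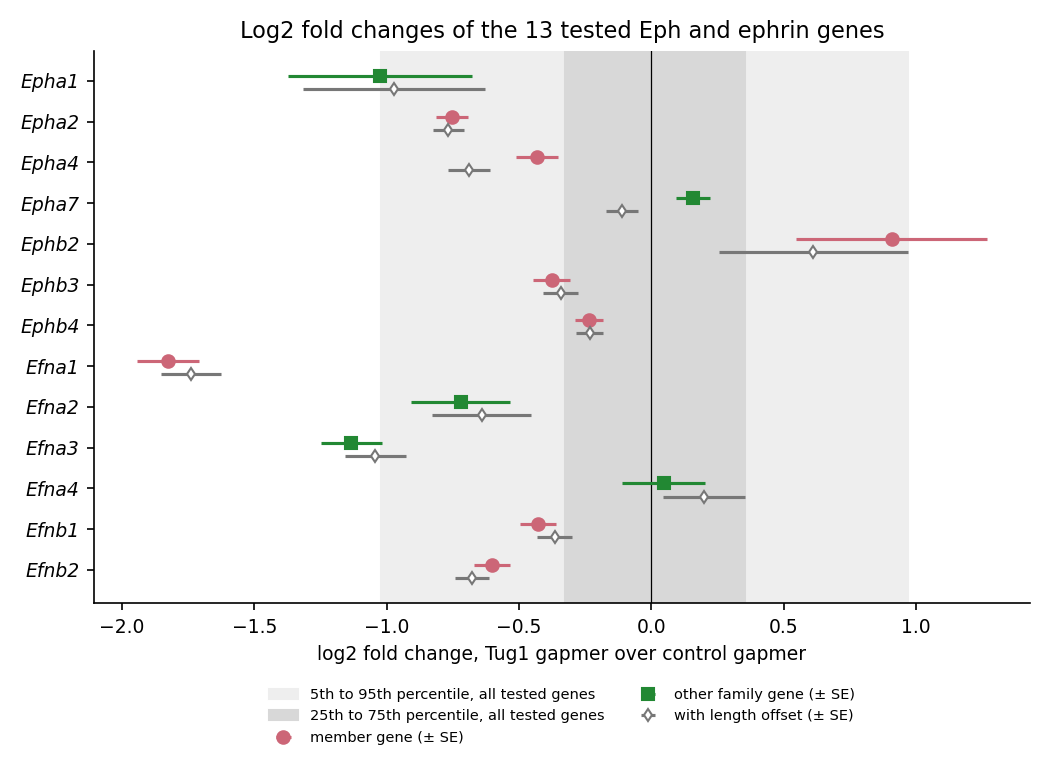
Log2 fold changes, Tug1 gapmer over control gapmer (horizontal axis), for the 13 tested genes of the family; circles are members, squares other family genes, open diamonds the same genes with the length offset, and bars the SE. Grey bands hold the middle of all 14216 tested genes. Efna1 at -1.83 lies furthest left, Ephb2 at 0.91 furthest right, and Epha7 changes sign with the offset.

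Efna1 and Efna3, the ephrins with the lowest log2 fold changes, are neighbours in the genome, with Efna4 beside them. In the RefSeq table of the rat assembly GRCr8 they occupy a stretch of 71.3 kb with 0 other protein-coding genes between them. Along this stretch the log2 fold changes were -1.83 (SE 0.117) for Efna1, -1.13 (SE 0.115) for Efna3 and 0.05 (SE 0.157) for Efna4. Of the 6 places on either side, 8 held tested genes, of which 2 fell, 1 rose and 5 did not pass. The closest tested genes were Slc50a1 beside Efna1, which encodes a sugar transporter (log2 fold change 0.19, SE 0.0953, adjusted p of 0.0829 in edgeR), and Adam15 beside Efna4, which encodes a membrane metalloprotease (-0.07, SE 0.0586, adjusted p of 0.325 in edgeR). Neither passed the threshold.

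**Figure D3:**
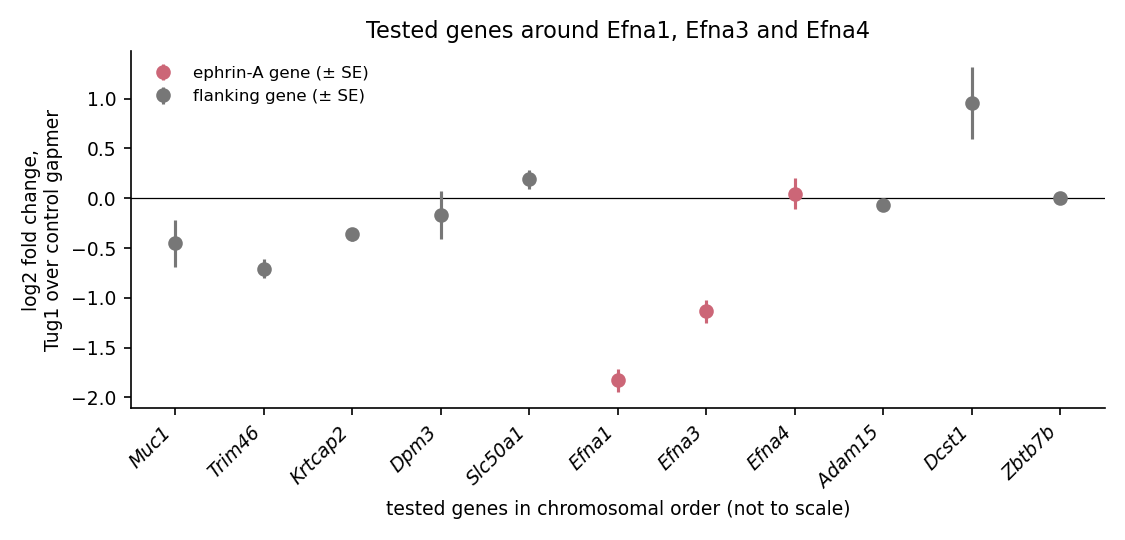
Log2 fold changes (vertical axis, bars are the SE) of the tested genes around Efna1, Efna3 and Efna4 in chromosomal order, not to scale. Efna1 and Efna3 lie at -1.83 and -1.13 between flanking genes nearer 0, while Efna4 lies at 0.05.

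The promoter windows of these 3 neighbours are printed because the genes adjoin, together with that of Epha2, the receptor with the lowest log2 fold change among the members. Each window runs from 250 bases before to 50 after an annotated start of the gene, from RefSeq on GRCr8. Of the 10 members, 9 have a window there. The start used need not be the outermost one, and for Efna1 it lies within the gene's span. Capitals mark matches, on either strand, to any of 7 motifs: the GC box GGGCGG, AP-1 as TGANTCA, CRE as TGACGTCA, TEAD as GGAATG, RBPJ as TGGGAA, ETS as CCGGAAG and the nuclear receptor half-site AGGTCA.
Efna1 promoter, GRCr8 chr2:176986772-176987071, minus strand: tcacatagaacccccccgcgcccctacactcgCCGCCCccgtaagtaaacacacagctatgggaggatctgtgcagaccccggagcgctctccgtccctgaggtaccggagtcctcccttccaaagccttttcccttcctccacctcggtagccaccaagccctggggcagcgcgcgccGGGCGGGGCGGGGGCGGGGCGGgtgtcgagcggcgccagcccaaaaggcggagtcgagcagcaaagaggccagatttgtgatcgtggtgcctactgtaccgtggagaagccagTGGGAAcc
Efna3 promoter, GRCr8 chr2:177035789-177036088, minus strand: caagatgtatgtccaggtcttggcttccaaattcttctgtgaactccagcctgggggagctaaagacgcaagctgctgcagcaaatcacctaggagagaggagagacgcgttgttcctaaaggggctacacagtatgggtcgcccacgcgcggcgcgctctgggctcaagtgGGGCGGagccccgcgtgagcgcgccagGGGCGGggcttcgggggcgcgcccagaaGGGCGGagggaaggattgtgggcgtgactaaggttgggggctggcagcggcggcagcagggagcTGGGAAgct
Efna4 promoter, GRCr8 chr2:177050664-177050963, minus strand: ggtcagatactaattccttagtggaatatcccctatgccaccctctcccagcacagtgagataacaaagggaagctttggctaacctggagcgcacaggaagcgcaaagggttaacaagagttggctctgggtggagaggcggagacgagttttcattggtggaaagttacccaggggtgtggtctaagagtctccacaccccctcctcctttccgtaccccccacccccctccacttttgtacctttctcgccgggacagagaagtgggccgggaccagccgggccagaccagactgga
Epha2 promoter, GRCr8 chr5:158888379-158888678, plus strand: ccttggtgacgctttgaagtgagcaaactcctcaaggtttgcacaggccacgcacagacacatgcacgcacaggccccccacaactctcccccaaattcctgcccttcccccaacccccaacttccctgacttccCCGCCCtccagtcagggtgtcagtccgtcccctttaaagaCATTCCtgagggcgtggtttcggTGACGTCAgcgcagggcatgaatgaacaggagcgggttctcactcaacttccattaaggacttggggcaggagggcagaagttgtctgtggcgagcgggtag

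Counting from 1 at the 5′ end of each window, Efna1 held GC boxes from bases 33, 180, 185, 191 and 196, of which neighbouring ones overlap or touch, and RBPJ letters from base 293. Efna3 held GC boxes from bases 173, 200 and 228 and RBPJ letters from base 292. Efna4 held 0 matches to the 7 motifs. Epha2 held 1 GC box from base 136, TEAD letters from base 176 and a CRE from base 199. The promoter of Efnb2, which was lower (-0.60), also held 0 matches, and that of Epha7 (0.16) held 2 GC boxes and RBPJ letters. Among the 9 member promoters, 4 held a GC box (Efna1, Epha2, Ephb3 and Ephb4), against 34.9% of all 27457 promoters in the table and 60.5% of those of tested genes. RBPJ letters stood in 3 of 9 (25.1% of all promoters and 22.8% of those of tested genes), CRE in 1 of 9 (1.91% and 3.12%) and TEAD in 1 of 9 (13.9% and 11.4%). AP-1 (7.33% and 5.04%), ETS (9.22% and 17.5%) and the half-site (15.7% and 11.8%) stood in 0 of 9. GC content of the 9 windows ran from 58.3% to 77.3%, highest in Efnb2, against a median of 60.7% for promoters of tested genes. These matches describe letters and not bound sites.

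The genes through which Eph receptors and ephrins act did not share one direction. Of 71 partner genes written down from general knowledge of the pathway, 62 were tested and 40 passed (64.5%), 26 higher and 14 lower (edgeR, adjusted p of 0.05), close to the 61.7% over all tested genes and thus not a property of this list. Their median log2 fold change was 0.08. With the length offset 43 passed, 18 higher and 25 lower, and the median was -0.01, so which direction prevailed depended on this scaling. Partners of this list span a median of 68.6 kb.

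Adaptors and cytoplasmic kinases, which bind the phosphorylated receptor tail, numbered 19 tested genes, of which 7 rose and 5 fell. This is 63.2%, against 61.7% of all tested genes. With the length offset 6 rose and 7 fell. Crkl, an adaptor that binds phosphorylated docking proteins, had 72.9, 73.7 and 71.4 CPM in controls and 34.8, 30.8 and 32.5 CPM after knockdown. It fell by 1.15 on the log2 scale (SE 0.0631, adjusted p of 5.29e-13 in edgeR), and its knockdown libraries were all below 35 CPM. Grb10, an adaptor of several tyrosine kinases, rose by 0.89 on the log2 scale, with means of 59.6 ± 1.06 and 111 ± 1.01 CPM (SD, n = 3). Nck2 rose by 0.74 and Dok1 fell by 0.74 on the log2 scale.

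Rin1, a Rab5 exchange factor and ABL activator known for Eph receptor endocytosis, had the lowest log2 fold change of the tested partners. It had 89.9, 92.7 and 83.1 CPM in controls and 30.8, 31.9 and 31.9 CPM after knockdown, which is a log2 fold change of -1.49 (SE 0.0624, adjusted p of 5.90e-15 in edgeR). Its groups were far apart, and with the length offset the value was -1.34.

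Partners listed under ephrin-B reverse signalling had 10 tested genes, of which 4 rose and 2 fell (60%, against 61.7% of all tested genes). With the length offset 4 rose and 3 fell. Pdzk1, a PDZ domain scaffold, rose by 1.00 on the log2 scale from a low 5.62 ± 0.529 CPM (SD, n = 3). Sdc2 rose by 0.37, or 0.16 with the length offset. It is a syndecan that EphB2 phosphorylates in neurons, which is a forward signal, although it was listed in this group. Rgs3, which binds the ephrin-B tail, fell by 0.31, and Tjp1 fell by 0.22; with the length offset both were at -0.56. Proteases and phosphatases that cut or switch off Eph complexes had 10 tested genes, of which 6 rose and 3 fell. This is 90%, against 61.7% of all tested genes, a difference that was not tested. With the length offset 3 rose and 3 fell. Mmp14, a membrane protease that cuts EphA2, fell by 0.61 on the log2 scale (SE 0.0472, adjusted p of 1.63e-10 in edgeR) between means of 467 ± 22.3 and 307 ± 13.1 CPM (SD, n = 3). Psen2 of the gamma-secretase complex fell by 0.45, the phosphatase Ptpn11 rose by 0.60 and Ptprj rose by 0.55. The rise of Ptprj did not pass with DESeq2's Wald test, with the length offset (0.28), or without control replicate 1 (0.56), control replicate 2 (0.41) or knockdown replicate 1 (0.37).

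**Figure D4:**
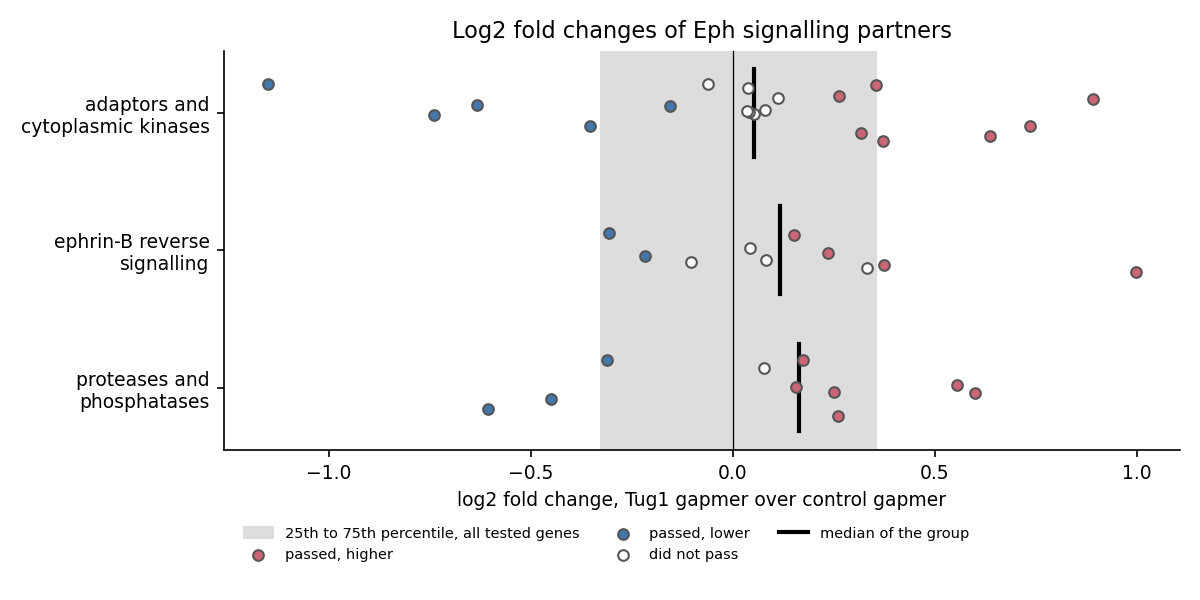
Log2 fold changes, Tug1 gapmer over control gapmer (horizontal axis), of 39 tested Eph signalling partners in 3 groups; each point is a gene, filled where it passed the threshold, and the vertical bars are group medians. The vertical position of points within a group has no meaning. Points lie on both sides of 0 in each of these groups, with Crkl at -1.15 lowest and Pdzk1 at 1.00 highest.

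The other guidance systems of the same kind were semaphorins with plexins and neuropilins, slits with robos, and netrins with their receptors. They gave 33 tested genes, of which 12 were higher and 9 lower, with a median log2 fold change of 0.01. Together 63.6% passed, near the 61.7% over all tested genes and thus not a property of this list. With the length offset 7 were higher and 14 lower, with a median of -0.13, so the prevailing direction of these genes turned with this scaling. In that fit 3964 of all 13079 genes were higher and 4159 lower. Their difference from the Eph and ephrin genes was not tested. Over the 6 libraries, the genes closest to Efna1 in centred log2 CPM were Ercc1 (Euclidean distance 0.184 on the log2 scale), Ier2 (0.248) and Megf10 (0.285), among 9067 genes with a mean of at least 10 CPM. Those closest to Ephb4, the member with the most counts, were Birc2 (0.0472), Slc35b2 (0.0574) and Uck2 (0.0593). With 2 groups these distances mostly reflect the size of the group difference.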

How the data were processed

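Poly-A RNA was sequenced from 6 H9c2 libraries, 3 per group. Per the labels' protocols, libraries were stranded and made from 500 ng of RNA with an integrity number of at least 9. The deposited values are whole-number counts per gene, unscaled and not pooled, as the values show. The submitters' processing notes name FastQC 0.11.7, fastp 0.14.1 and STAR 2.5; counting tool, build, annotation and strand setting are not given in the sources used here.

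In R 4.3.3, 14216 of 40456 genes passed edgeR's expression filter (edgeR 4.0.16, minimum count 10, minimum total 15). Libraries were scaled by TMM (factors 0.979 to 1.02), compared by edgeR's two-sided quasi-likelihood test (prior count 0.125, no block) and adjusted over all tested genes by Benjamini-Hochberg; adjusted p under 0.05 was called. CPM are on the TMM scale. At or under 3 counts a gene was taken as not detected.

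Alternatives were DESeq2 1.42.0, limma-voom (limma 3.58.1), other scalings, filters and threshold, a block for the replicate number, fits that each left out 1 library, and a length offset, a lowess trend (span 0.3) on genomic span known for 13079 tested genes (92.0%). Scripts were checked on data with known answers. Spans, order and promoters came from RefSeq on GRCr8, whereas the authors' build is unknown. Members, lists and alternatives were chosen with earlier results of these data known. Named were all members, other family genes above 3 counts, up to 2 changed partners per direction and sub-list, Tug1, and the 3 genes nearest Efna1 and Ephb4. Genes flanking the ephrin-A stretch, Zan and Zyx, the other family genes at or below 3 counts, and the markers printed were named outside this rule. Of the 5 groups of partners, 2 are included in the totals but not reported here by name, apart from Rin1.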

Additional observations from a re-analysis of the deposited data

How the results depend on the processing

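Of 16 alternatives, each gave 7 or 8 members past the threshold, and the 7 lower members were lower and past it in all of them; the member that moved was Ephb2. Over the 15 alternatives that refit the model, 113 of 120 member values kept direction and call and 7, all of Ephb2, lost the call. Of the other family genes, 4 passed in the reported fit, but 2 with DESeq2's Wald test and 2 at an adjusted p of 0.01, and 2 to 4 when a library was left out (2 without control replicate 2). Epha7 was at -0.112 with the length offset and at -0.111 with the length offset and replicate block, and Efna4 ranged from -0.0552 (without control replicate 1) to 0.165 when a library was left out; why these values moved was not tested. Partners past the threshold numbered 37 to 44. Changed genes over the whole table ran from 7353 to 8987, and 8128 to 8410 when a library was left out; library totals in place of TMM put the median of all tested genes at 0.06 (log2).

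Libraries with the same replicate number did not deviate together, with correlations across genes of -0.0129, 0.0527 and 0.0438 for replicates 1 to 3. With the replicate block 8848 genes, 8 members, 4 other family genes and 40 partners passed. Depth limits genes near 1 CPM such as Ephb2 and Epha1.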
